A study of Mus musculus with 10 samples.

Results

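The genes described here are 10 genes of DNA replication in P19 cells, a mouse embryonal carcinoma line: Mcm2, Mcm3, Mcm4, Mcm5, Mcm6, Mcm7, Pcna, Fen1, Rrm1 and Rrm2. They were chosen by name, among mRNA reads with a tail estimate of quality PASS, and they gave 4362 of 2042110 kept reads and 10 of 13272 genes. P19 cells, wild type and undifferentiated, had received a pool of scrambled siRNAs with no close match in mammalian genomes (siCtl) or a single siRNA against Larp1 (siLarp1), an RNA-binding protein. Cells were collected 24 h after transfection (3 libraries per treatment) or at 48 h, after a repeat transfection at 24 h (2 libraries per treatment). Poly(A) RNA was sequenced as native molecules by Nanopore direct RNA-seq, so that 1 read was 1 molecule with its own tail. All comparisons describe 1 cell line. Libraries of the same treatment were pooled for the 24 h runs, so pool and siRNA cannot be told apart at that time, while those of 48 h went into 1 common pool.

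The 6 MCM proteins form the ring-shaped helicase that is loaded at replication origins before S phase and unwinds DNA ahead of the fork. PCNA is the sliding clamp that holds DNA polymerases on the template and recruits other fork enzymes, among them FEN1, the nuclease that trims the flap of each lagging-strand fragment. RRM1 and RRM2 are the large and the small subunit of ribonucleotide reductase, which makes the deoxynucleotides. Transcription of these genes is driven in proliferating cells by E2F factors, and pluripotent cells, with their short cell cycle, express them highly. The mRNAs were compared in how many molecules were sequenced, how long their poly(A) tails were and where they ended, with and without the Larp1 siRNA.

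The 3′ ends of the reads placed the tails on the genes (build GRCm38). For 8 of the 10 genes more than 90% of the reads ended at 1 site, counting ends less than 25 nt apart as 1 site. The exceptions were Pcna, on chromosome 2, and Rrm2, on chromosome 12, which had a main end with 1022 of 1176 and 367 of 437 reads and a nearer end with 121 and 48 reads. All of these ends lay in the 3′ UTR. The main end of Pcna was 333 nt past the last base of the annotated coding sequence and its nearer end 143 nt past it, while the ends of Rrm2 were 860 and 65 nt past it. The stretches below, read from the GENCODE transcripts, hold a match to the poly(A) signal before each end. Capitals mark the match to the hexamer that the cleavage machinery recognises. Whether a match was used for cleavage was not tested.

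Pcna, main end, chr2:132249286-132249315, minus strand: tttaAATAAAgttaacaatttgaaaagtca
Pcna, nearer end, chr2:132249478-132249507, minus strand: ttaaAATAAAatatgtagatatcttctgta
Rrm2, main end, chr12:24714066-24714095, plus strand: aattAATAAActcttgaattaacagtcttg
Rrm2, nearer end, chr12:24713271-24713300, plus strand: tgccATTAAAagaaaccagcaaaaacaacc
Mcm3, main end, chr1:20803009-20803038, minus strand: actgAGTAAAtataactattttgtacatgt
Mcm4, main end, chr16:15624097-15624126, minus strand: cctaAATAAAtgatagaaaagtaatacttg
Mcm5, main end, chr8:75127640-75127669, plus strand: aggtAATAAAgcaattgagtccctggctgc
Mcm6, main end, chr1:128331590-128331615, minus strand: tgaaAATAAAacaacttgttctgtga

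The first 4 stretches are shown because the tails differed between the ends they precede, and the other 4 as examples from the helicase genes. AATAAA stood within 60 nt before the main end of 9 of the 10 genes, and Mcm3 had the variant AGTAAA there. In Mcm5 it began 54 nt before the most frequent end position, which lies past the printed stretch, while in the other genes the hexamer began 19 to 26 nt before the main end. The nearer end of Rrm2 followed the variant ATTAAA, whereas both ends of Pcna followed AATAAA. Mcm2 and Mcm6 reads ended at the last annotated base in their most frequent position. Reads were aligned to annotated transcripts, so a longer 3′ UTR of these 2 genes would not show. Reads of Mcm4, Mcm5 and Rrm1 ended 206, 742 and 845 nt before the annotated end of the transcript that took most reads. The most used 3′ UTRs of Mcm5 and Rrm1 in P19 cells were thus shorter than that of this transcript. The shorter end held 457 of 484 and 262 of 264 reads. Whether another annotated transcript of these genes ends there was not checked. Mcm2 on chromosome 6, Mcm7 on chromosome 5, Fen1 on chromosome 19 and Rrm1 on chromosome 7 also had AATAAA, 19 to 21 nt before the main end, and are not printed.

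Which end was used did not separate the treatments. The nearer end of Pcna held 10.0% of its reads in siCtl and 9.41% in siLarp1 at 24 h, and 12.8% and 10.2% at 48 h. For Rrm2 these shares, pooled over the libraries of a group, were 13.8% and 9.78% at 24 h and 10.2% and 3.23% at 48 h. By library the Rrm2 share ranged from 8.79 to 21.8% in siCtl and from 2.94 to 18.5% in siLarp1 at 24 h, so that the groups overlapped, and at 48 h it rested on 6 and 2 reads. The Rrm2 share was not tested.

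Tails at the nearer ends were shorter than at the main ends in most libraries. For Pcna the median tail was 81.3 nt over the 121 reads of the nearer end and 113 nt over the 1022 reads of the main end. By library, the median at the nearer end of Pcna was the shorter one in 9 of 10 libraries, with differences between -69.2 and 24.7 nt and a median difference of -17.6 nt. The one library in which it was longer was siLarp1 library 19, with 4 reads at that end. For Rrm2 the medians were 103 nt over 48 reads and 127 nt over 367 reads, and the nearer end had the shorter median in 7 of the 9 libraries with reads at both. The 2 exceptions in Rrm2, siLarp1 libraries 19 and 24, had 5 reads and 1 read at the nearer end. These ends were compared after their values were seen, so no test is given.

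**Figure D1:**
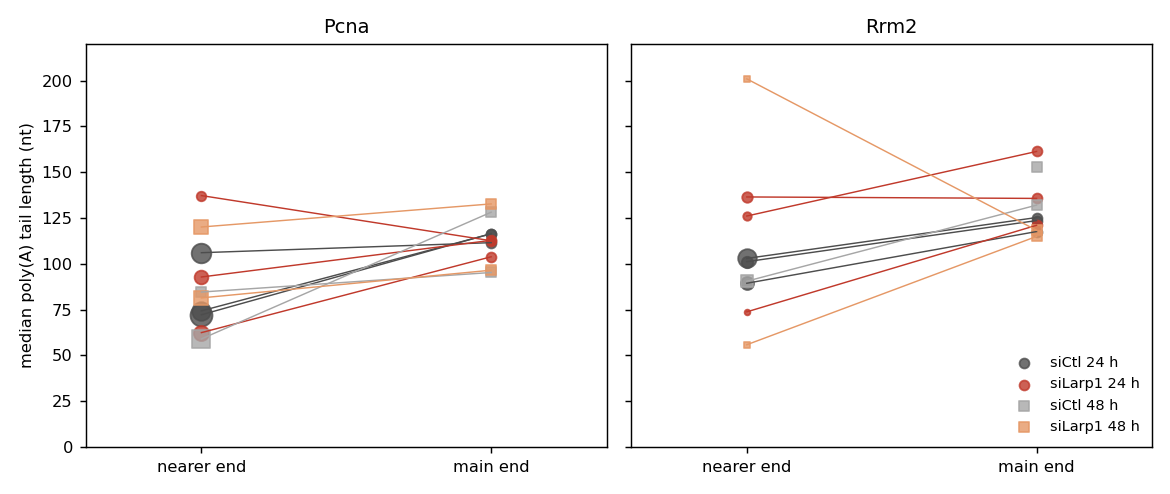
Median poly(A) tail length in nt (vertical axis) of Pcna and Rrm2 reads at the nearer and the main 3′ end, 1 line per library, coloured by group. Symbols at the nearer end grow with the number of its reads, from 1 to 24. Lines climb from the nearer to the main end in 9 of 10 libraries for Pcna and in 7 of 9 for Rrm2, and 1 siCtl library at 48 h had no Rrm2 read at the nearer end.

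The other ends were few in reads. Besides the 10 main ends and the nearer ends of Pcna and Rrm2, 7 ends with at least 5 reads were found, among them the annotated last base of Mcm5 (12 reads, median tail 125 nt) and of Pcna (18 reads, 98.1 nt). One more Rrm2 end, 121 nt past the coding sequence, had 11 reads with a median tail of 94.3 nt, close to that of the nearer end. Another Rrm2 end before the main one, 569 nt past the coding sequence, had 7 reads and a longer median tail, 165 nt. A Pcna end 226 nt past the coding sequence, also before the main one, had 9 reads and 108 nt.

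Each gene was represented by 7 to 229 reads in a library. The share of reads that covered the whole coding sequence was 76.2% for Pcna, whose coding sequence has 783 nt, 55.4% for Rrm2 (1170 nt) and 7.26% for Mcm2 (2712 nt), with the other MCM genes between 28.9 and 44.9%. Over all 10 genes this share was 49.9 to 55.5% in siCtl and 48.9 to 56.6% in siLarp1 at 24 h, and 30.4 to 44.7% and 32.4 to 44.0% at 48 h, so that the ranges of the treatments overlapped at either time and the 48 h libraries held more truncated reads. Only 16 of the 4362 reads had a further alignment listed in the deposited data, a number that leaves out other reads of uncertain placement. The mapping quality was under 10 for 807 reads, of which Mcm5 gave 377 and Fen1 182, both genes with several overlapping transcripts. Of the RefSeq promoter table, 9 of the 10 genes had an entry (250 bases before to 50 after the start). An E2F motif, TTTCCCGC, TTTCGCGC, TTTGCCGC or TTTGGCGC on either strand, stood in a window of Mcm3, Mcm5, Mcm6 and Mcm7. A second window of Mcm7 had none, and neither did those of Mcm2, Pcna, Rrm1, Rrm2 and Fen1. Counted by single window, 2.26% of all 32851 promoters had a motif.

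Across the series the kept reads numbered 112720 to 423398 per library. At 24 h they were 289738 to 423398 in siCtl and 119863 to 157054 in siLarp1, so that depth differed between the treatments without overlap. At 48 h they were 112720 to 178704 in siCtl and 120554 to 162076 in siLarp1. Larp1 itself was read at 75.9, 84.2 and 85.0 RPM (reads scaled to 1000000 kept reads per library) in siCtl and at 33.4, 44.9 and 19.1 RPM in siLarp1 at 24 h, and at 169 and 123 RPM against 18.5 and 24.9 RPM at 48 h. Over both times its log2 difference was -1.84 (SE 0.34, limma adjusted p = 0.00240). At a single time even Larp1 did not pass, with -1.34 (SE 0.43, limma adjusted p = 0.827) at 24 h and -2.52 (SE 0.56, limma adjusted p = 0.252) at 48 h. Of the markers of pluripotent embryonal carcinoma cells 9 of 10 had reads, led by Pou5f1 with 2277 to 3028 RPM, and only Zfp42 had none. The 4 markers of neural progenitors that had reads summed to at most 67.9 RPM, and those of neurons (4 of 5 with reads, Neurod1 at 0) to 93.0 RPM. Endoderm markers (2 of 4 with reads) reached 6.37 RPM, with Sox17 and Afp at 0. Mesoderm and fibroblast markers (4 of 5 with reads, Mesp1 at 0) summed to 273 to 331 RPM in siCtl and 194 to 280 RPM in siLarp1 at 24 h, and to 417 to 565 and 444 to 680 RPM at 48 h, most of it from T and Vim. T alone, the mesoderm factor brachyury, ranged from 20.3 to 389.9 RPM over the libraries. Which cells these reads came from, and their part in the results below, was not tested.

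No replication gene passed the test for a change in abundance. Together they gave 2085, 2147 and 2010 RPM in the siCtl and 2545, 2116 and 1936 RPM in the siLarp1 libraries at 24 h, and 1925 and 2317 against 2437 and 2074 RPM at 48 h. The sums of the groups overlapped at both times. With limma voom on the tallied reads, none of the 10 genes passed an adjusted p of 0.05 at 24 h (0 of 4800 genes, 0%), at 48 h (0 of 2704, 0%), over both times (7 of 5858, 0.119%) or in the difference between the times (0 of 5858, 0%). At an unadjusted p under 0.05 stood only Mcm6, at 24 h and over both times, against 5.62% of all genes at 24 h and 5.91% over both times, and no member at 48 h (4.99%) or between the times (4.35%). In bulk RNA, a change in the share of cells in S phase and a change in molecules per cell cannot be told apart.

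Pcna was the most abundant of the 10 in every group. It gave 621, 552 and 541 RPM in siCtl and 726, 598 and 560.3 RPM in siLarp1 at 24 h, and 506 and 554 against 568 and 614 RPM at 48 h. siLarp1 library 19 was the highest of all, and only at 48 h, with 2 libraries against 2, did the groups not overlap. Over both times the log2 difference of Pcna was 0.14 (SE 0.10, 95% interval -0.07 to 0.34), a ratio of 1.10 with an interval of 0.952 to 1.27, so that a change of Pcna by more than this was not seen at this depth. Fen1, whose product works at the same clamp, gave 55.2, 134 and 94.5 RPM in siCtl and 83.4, 67.3 and 95.5 RPM in siLarp1 at 24 h, and 62.1 and 145 against 105 and 99.5 RPM at 48 h. Its counts were among the lowest, with 7 to 46 reads per library, and its log2 difference over both times was -0.08 (SE 0.25, 95% interval -0.57 to 0.41).

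Among the helicase genes, Mcm6 had the largest difference in reads at 24 h and over both times, but not at 48 h. Its level was 138, 200.4 and 165 RPM in siCtl and 242, 247 and 223 RPM in siLarp1 at 24 h, and 151 and 246 against 259 and 166 RPM at 48 h. At 24 h the 3 siLarp1 libraries all lay above the 3 siCtl libraries, which held for 4.69% of all genes in this direction, whereas at 48 h the groups overlapped. The log2 difference of Mcm6 was 0.51 (SE 0.19, 95% interval 0.12 to 0.89) at 24 h (unadjusted p = 0.0116, adjusted p = 0.827) and 0.36 (SE 0.17, 95% interval 0.03 to 0.70) over both times (unadjusted p = 0.0318, adjusted p = 0.810). Between the times the Mcm6 difference changed by -0.43 (SE 0.35, 95% interval -1.13 to 0.27) with an adjusted p of 0.970. No member had its siLarp1 libraries all below siCtl, which held for 6.19% of all genes at 24 h and 15.9% at 48 h. An exact permutation test of the 24 h means of Mcm6, two-sided, gave p = 0.1, the smallest that 3 against 3 libraries allow.

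The MCM2-7 ring holds 1 copy of each subunit, but their mRNAs were read at unequal levels. Mcm2 gave 117, 116 and 111 RPM in siCtl and 117, 89.7 and 57.3 RPM in siLarp1 at 24 h, and 115 and 123 against 179 and 116 RPM at 48 h. Its siLarp1 libraries were on average lower than siCtl at 24 h and higher at 48 h, with overlap at both times, and the log2 difference was -0.14 (SE 0.22, 95% interval -0.58 to 0.29) over both times. Mcm3 gave 224, 203 and 198 RPM in siCtl and 267, 194 and 216 RPM in siLarp1 at 24 h, and 213 and 241 against 265 and 265 RPM at 48 h. At 48 h both of its siLarp1 libraries lay above both siCtl libraries, as did those of 18.2% of all genes, Pcna among them, and over both times its log2 difference was 0.15 (SE 0.15, 95% interval -0.15 to 0.45). Mcm4, the least abundant of the 10 in the 24 h siCtl libraries, gave 65.6, 102 and 102 RPM in siCtl and 108, 112 and 95.5 RPM in siLarp1 at 24 h, and 115 and 61.6 against 74.0 and 108 RPM at 48 h. Mcm5 gave 266, 249.8 and 189 RPM in siCtl and 309, 202 and 178 RPM in siLarp1 at 24 h, and 222 and 302 against 284 and 199 RPM at 48 h. Mcm7, the most abundant MCM gene in the 24 h siCtl libraries, gave 266, 212 and 274 RPM in siCtl and 325, 247 and 223 RPM in siLarp1 at 24 h, and 257 and 269 against 339 and 191 RPM at 48 h. For these 3 the groups overlapped at both times. The log2 differences over both times were 0.21 (SE 0.23, 95% interval -0.24 to 0.66) for Mcm4, -0.08 (SE 0.16, 95% interval -0.40 to 0.24) for Mcm5 and 0.04 (SE 0.15, 95% interval -0.26 to 0.34) for Mcm7.

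The ribonucleotide reductase subunits had differences of opposite sign, each with an interval that held 0. Rrm1, the large subunit, gave 142, 151 and 120.5 RPM in siCtl and 142, 127 and 70.0 RPM in siLarp1 at 24 h, and 124 and 145 against 129.6 and 116 RPM at 48 h. Rrm2, the small subunit and the one whose level is known to follow S phase, gave 189.8, 227 and 215 RPM in siCtl and 225, 232 and 216 RPM in siLarp1 at 24 h, and 159.7 and 229 against 234 and 199 RPM at 48 h. Both genes overlapped between treatments at either time. The log2 difference over both times was -0.27 (SE 0.20, 95% interval -0.67 to 0.13) for Rrm1 and 0.11 (SE 0.15, 95% interval -0.20 to 0.42) for Rrm2.

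**Figure D2:**
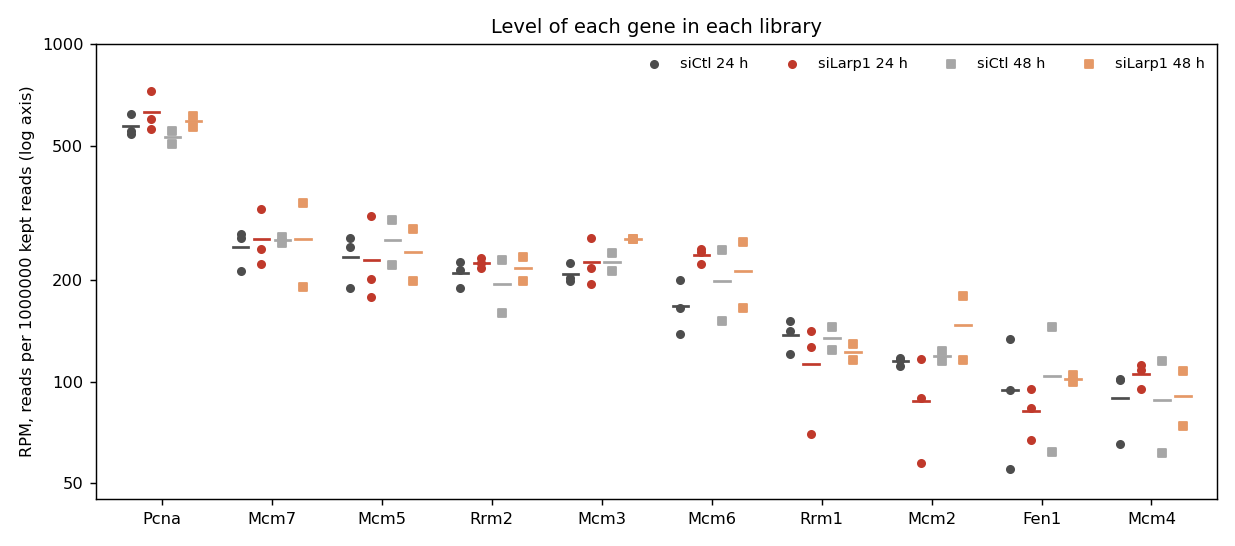
Reads scaled to 1000000 kept reads (RPM) on a log axis for the 10 genes (horizontal axis), 1 point per library and a bar at the mean of each group, from the most to the least abundant in siCtl at 24 h. Pcna stands above all other genes in every group, and Mcm6 at 24 h is the one gene whose 3 siLarp1 libraries lie above the 3 siCtl libraries.

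Levels in the 24 h siCtl libraries ran from 571 RPM for Pcna to 89.6 RPM for Mcm4, in the order Pcna, Mcm7, Mcm5, Rrm2, Mcm3, Mcm6, Rrm1, Mcm2, Fen1 and Mcm4. Only Pcna and Mcm7, and Rrm1 and Mcm2, were neighbours in this order whose ranges over the 3 libraries did not overlap. All 10 stood above the median of the 3547 genes with enough reads for a tail comparison, which was 74.6 RPM. Scaled to the annotated length of the transcript that took most reads, Pcna was again first with 376 RPM per kb and Mcm4 again last. Rrm2 moved to second place with 96.0 RPM per kb. Since each read was a molecule, the order in RPM compares molecules, and the order per kb does not. The annotated lengths also exceed those used in Mcm4, Mcm5 and Rrm1, whose reads mostly ended well before the annotated end.

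Poly(A) tails of the replication genes, pooled over the 10, were by median longer than those of all other reads. The median over their reads was 113, 114 and 111 nt in the siCtl libraries and 111, 107 and 113 nt in the siLarp1 libraries at 24 h, and 106 and 109 nt and 105 and 118 nt at 48 h. In each of the 10 libraries this was above the median of all other reads, by 6.35 to 15.0 nt. The difference was largest in siLarp1 library 25. In the 24 h siCtl libraries, 8 of the 10 genes had a mean of the median tails above 105.8 nt, the median over 3547 genes, though Mcm5, with 105.97 nt, only just. The quartiles over these genes were 97.4 and 116.3 nt. Mcm4, Rrm2 and Rrm1 lay above the upper quartile, with 136, 118 and 117 nt, and the other members between the quartiles. Mcm4 stood at the 94.7th percentile of the 3547 genes and Fen1 at the 43.5th. The lower share of ~60-nt tails, those of 30 to 90 nt, went with this: it was 28.8 to 38.0% in the replication genes and lower than in the other reads in 10 of 10 libraries.

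**Figure D3:**
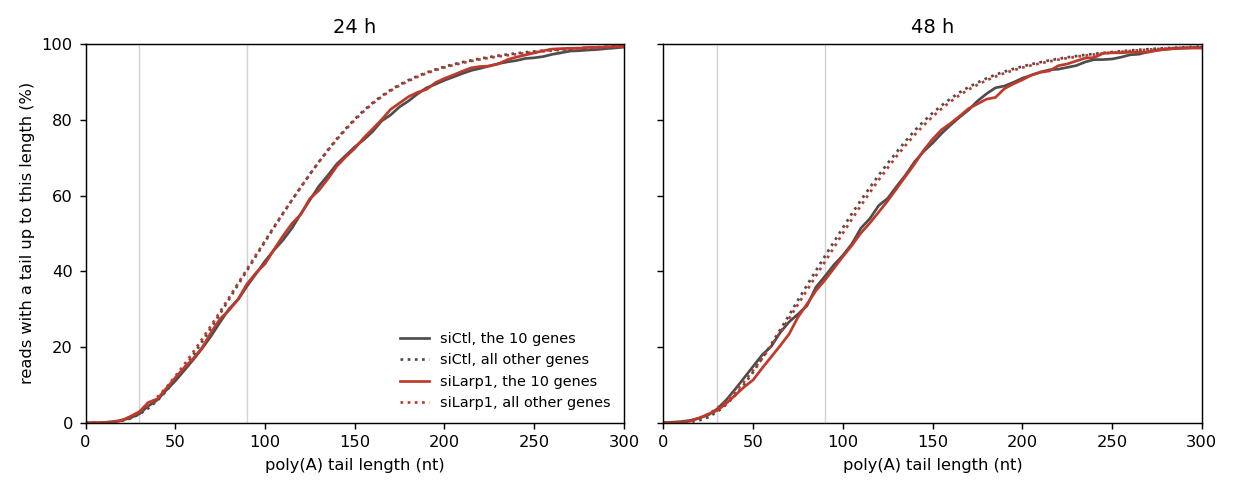
Share of reads in percent with a tail up to the length on the horizontal axis, in nt, pooled over the libraries of each group, for the 10 genes (solid) and all other genes (dotted), at 24 h (left) and 48 h (right). Grey lines mark 30 and 90 nt. Between 90 and 200 nt the curves of the 10 genes lie to the right of those of the other genes, and siCtl and siLarp1 nearly coincide at 24 h.

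No replication gene passed the test for a change in tail length either. None reached an adjusted p of 0.05 for the median tail at 24 h (0 of 4492 genes, 0%), at 48 h (1 of 2660, 0.0376%), over both times (2 of 3547, 0.0564%) or between the times (0 of 3547, 0%). Only Mcm2, at 24 h and over both times, stood at an unadjusted p under 0.05, where 5.39% and 6.12% of all genes stood, and none did at 48 h (6.02%) or between the times (5.1%). At 24 h the library medians of siLarp1 and siCtl overlapped in all 10 genes, where 6.52% of all genes had siLarp1 above every siCtl library and 5.04% below. At 48 h Mcm2 and Rrm2, 2 of the 10, had siLarp1 below every siCtl library (12.9% of all genes), and none had it above (20.8%). Over both times the median of the 10 log2 differences was 0.03, against 0.02 over all genes tested, with 6 above and 4 below 0.

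Mcm2 had the largest difference in tails at 24 h, at 48 h and over both times, with siLarp1 shorter. Its median tail was 123, 117 and 105 nt in siCtl and 76.1, 111 and 71.6 nt in siLarp1 at 24 h, and 143 and 124 against 105 and 104 nt at 48 h. In 2 of the 3 siLarp1 libraries at 24 h it was under 80 nt, below every siCtl library, and the remaining one lay among them. At 48 h both siLarp1 libraries were below both siCtl libraries, as for 12.9% of all genes. These medians rest on 9 to 14 reads per siLarp1 library at 24 h. The log2 difference of the Mcm2 median tail was -0.41 (SE 0.18, 95% interval -0.78 to -0.04) at 24 h (unadjusted p = 0.0323, adjusted p = 0.843) and -0.37 (SE 0.14, 95% interval -0.65 to -0.09) over both times (unadjusted p = 0.0105, adjusted p = 0.576). That is a tail ratio of 0.774, with an interval of 0.639 to 0.938, before any correction for the 3547 genes tested.

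Mcm4 had the longest tails of the 10 in the 24 h siCtl libraries, where its range and that of the next gene, Rrm2, did not overlap. By group mean, Mcm4 was below Rrm2 in siLarp1 at 24 h (130 against 134 nt). In siCtl at 48 h Mcm4 was below Rrm2 and Mcm2 (130 against 139 and 133 nt), and in siLarp1 at 48 h Mcm4 was again first (134 nt). Its medians were 142, 129 and 137 nt in siCtl and 120.0, 157 and 112 nt in siLarp1 at 24 h, and 156 and 105 against 129 and 140.2 nt at 48 h. Outside the 24 h siCtl libraries, the Mcm4 medians rest on 11 to 15 reads each. Of its 189 reads, 0 had a tail under 30 nt, which allows a share of up to 1.59%. Treatments overlapped at both times, and the log2 difference of the Mcm4 tail over both times was -0.03 (SE 0.14, 95% interval -0.33 to 0.26). Mcm3 had medians of 119, 111 and 117 nt in siCtl and 91.2, 107 and 117 nt in siLarp1 at 24 h, and 98.7 and 109.8 against 102 and 117 nt at 48 h. Mcm5 had medians of 110.0, 95.6 and 112 nt in siCtl and 87.5, 111 and 137 nt in siLarp1 at 24 h, and 111 and 107 against 93.5 and 129.7 nt at 48 h. In Mcm5 the siLarp1 libraries were both the shortest and the longest, at 24 h as at 48 h. Mcm6 had medians of 98.6, 113 and 101 nt in siCtl and 121, 101 and 107 nt in siLarp1 at 24 h, and 82.7 and 114 against 128 and 90.3 nt at 48 h. Mcm7 had medians of 112, 114 and 105 nt in siCtl and 121, 108 and 102 nt in siLarp1 at 24 h, and 106 and 103 against 98.8 and 148 nt at 48 h. All 4 overlapped between treatments at 24 h and at 48 h. Their log2 tail differences over both times ran from -0.08 (SE 0.09) for Mcm3 to 0.08 (SE 0.10) for Mcm6, with 0.00 (SE 0.10) for Mcm5 and 0.04 (SE 0.09) for Mcm7.

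Pcna, with most reads, gave the narrowest comparison of tails. Its median was 108, 114 and 103 nt in siCtl and 113, 102 and 112 nt in siLarp1 at 24 h, and 94.0 and 109 against 92.7 and 126 nt at 48 h. The 48 h siLarp1 libraries lay outside the siCtl pair on either side. Over both times the log2 difference of the Pcna tail was 0.02 (SE 0.07, 95% interval -0.11 to 0.16), a ratio of 1.02 with an interval of 0.927 to 1.12. Fen1 had the shortest tails in the 24 h siCtl libraries, and its medians were 108, 106 and 96.3 nt in siCtl and 86.2, 107 and 122 nt in siLarp1 at 24 h, and 80.3 and 94.8 against 109.5 and 87.6 nt at 48 h. With 7 to 46 reads per library these spread widely, and the log2 difference over both times was 0.08 (SE 0.14, 95% interval -0.21 to 0.37).

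The Rrm2 tail differences at the 2 times had opposite signs. The Rrm2 medians were 122, 115 and 118 nt in siCtl and 136, 144 and 121 nt in siLarp1 at 24 h, and 148 and 129 against 124 and 109.6 nt at 48 h. At 24 h the siLarp1 libraries were on average longer, with 1 of them among the siCtl values, and at 48 h both were shorter than both siCtl libraries, as for 12.9% of all genes. The change of the log2 difference between the times was -0.36 (SE 0.20, 95% interval -0.76 to 0.05) (unadjusted p = 0.0799, adjusted p = 0.938), which did not pass the test. Rrm1 had medians of 112, 128 and 112 nt in siCtl and 130.3, 93.8 and 122 nt in siLarp1 at 24 h, and 106 and 88.8 against 124 and 105 nt at 48 h. Its log2 tail difference over both times was 0.07 (SE 0.13, 95% interval -0.19 to 0.34), and that of Rrm2 0.06 (SE 0.10, 95% interval -0.14 to 0.25).

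**Figure D4:**
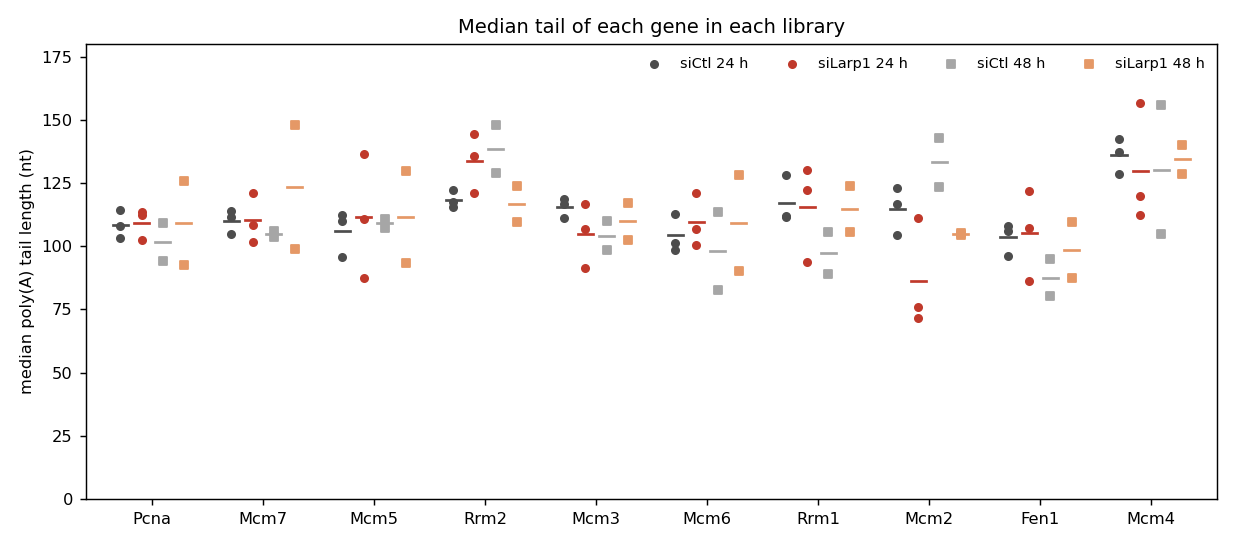
Median poly(A) tail length in nt of each of the 10 genes, 1 point per library and a bar at the mean of each group, in the order of abundance. Mcm4 has the longest tails in the 24 h siCtl libraries, and 2 of the 3 siLarp1 libraries of Mcm2 at 24 h lie below all its siCtl libraries.

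In the class of ~60-nt tails, none of the 10 genes passed an adjusted p of 0.05 at 24 h (7 of 4492 genes, 0.156%), at 48 h (0 of 2660, 0%), over both times (14 of 3547, 0.395%) or between the times (1 of 3547, 0.0282%). No member stood at an unadjusted p under 0.05 either, against 4.59%, 6.5%, 5.33% and 4.82% of all genes. The largest difference over both times was that of Mcm2, with a log2 odds ratio of 0.61 (SE 0.43, 95% interval -0.23 to 1.45), in the direction of more ~60-nt tails in siLarp1. It was -0.38 (SE 0.40, 95% interval -1.15 to 0.40) for Rrm1, whose 2 siLarp1 libraries at 48 h both had a lower share of ~60-nt tails than the siCtl libraries (on average 28.6% against 42.9%), as in 23.6% of all genes. At 24 h no member had its siLarp1 shares all below siCtl (6.74% of all genes). Among the others the log2 odds ratios ran from -0.21 (SE 0.30) in Mcm6 to 0.33 (SE 0.29) in Mcm3.

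Tails under 30 nt were rare in these genes. Over all libraries 122 reads of the 10 had one, 43 of them from Pcna, 19 from Mcm5 and 17 from Mcm7. Pooled over a group, the share was 2.37% (52 of 2194 reads, exact 95% interval 1.78 to 3.10%) in siCtl and 2.91% (26 of 892, 1.91 to 4.24%) in siLarp1 at 24 h. At 48 h it was 3.65% (23 of 631, 2.32 to 5.42%) and 3.26% (21 of 645, 2.03 to 4.93%). These intervals cover counting error only. All other genes together had 2.26% and 2.83% at 24 h, and 2.87% and 3.85% at 48 h. The replication genes were above the other genes in 5 of 10 libraries. By library their share was 1.82 to 3.11% in siCtl and 1.97 to 3.95% in siLarp1 at 24 h, and 3.14 to 4.61% and 2.53 to 4.40% at 48 h, with overlap at both times.

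**Figure D5:**
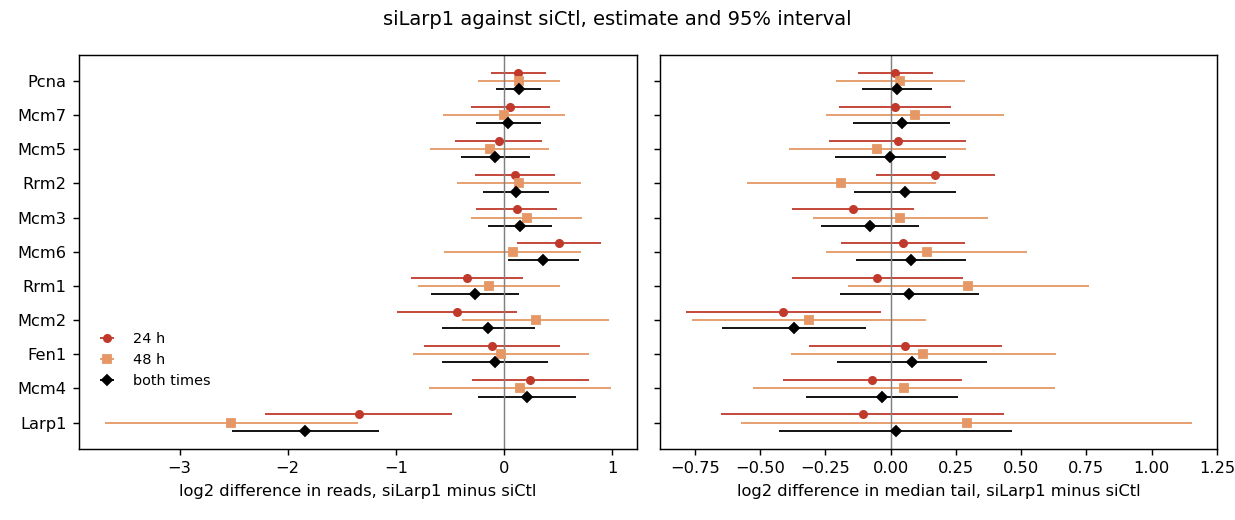
Estimated log2 difference, siLarp1 minus siCtl, with its 95% interval for the reads (left) and the median tail (right) of each gene at 24 h, at 48 h and over both times, with Larp1 as the lowest row. Of the 10 genes only Mcm6 in reads and Mcm2 in tails have intervals that leave out 0, and neither passed the adjusted threshold, whereas the read interval of Larp1 lies wholly below 0.

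Other genes of DNA replication, a list of 67 for origin licensing, polymerases, clamp loading, single-strand binding, nucleotide supply and chromatin assembly, held no call either. In reads, 59 were tested over both times, of which 30 were above and 29 below 0 with a median log2 difference of 0.00, against 0.03 over all genes, and none passed the adjusted threshold. The smallest unadjusted p were those of Samhd1, the enzyme that breaks down deoxynucleoside triphosphates (log2 -0.82, SE 0.35, adjusted p = 0.791), of Top1, the topoisomerase that relaxes DNA ahead of the fork (0.42, SE 0.25, adjusted p = 0.858), and of Dut, which removes dUTP (-0.20, SE 0.12, adjusted p = 0.874). Of these Samhd1 alone was under an unadjusted p of 0.05. In tails, 49 were tested over both times, 33 above and 16 below 0, with a median log2 difference of 0.07 against 0.02 over all genes, and none passed. The smallest unadjusted p were those of Pole4, a small subunit of polymerase epsilon (0.43, SE 0.15, adjusted p = 0.576), of Tipin, a fork protection factor (-0.31, SE 0.13, adjusted p = 0.638), and of Chaf1b, a subunit of the histone chaperone CAF-1 (0.36, SE 0.18, adjusted p = 0.806). In the ~60-nt class none of the 49 passed either.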

How the data were processed

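Native poly(A) RNA of 10 libraries was read on Nanopore flow cells. The authors called bases with Guppy, split barcodes with Deeplexicon, aligned reads to mouse transcripts with Minimap2 (minimap2 2.20 per the labels) and estimated tails with Nanopolish. In the deposited table every alignment of a read has its own line. Per the file headers it holds tail lengths in nt with their quality, the mapping score that the authors' aligner gave and, as a fraction, the confidence of the barcode that the authors assigned. Only mRNA alignments tagged PASS were used here, without pseudogenes and mitochondrial genes. Libraries are called 19, 21 and 22 at 24 h, and 24 and 25 at 48 h. These numbers are names, since none could be matched to a labelled replicate, and the group of a library comes from the condition the table gives it. The study's methods call the libraries of a group biological replicates, and p-values measure the spread between them.

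Reads per gene were tallied here, since the deposited table has no counts per gene, and tested with limma 3.58.1 (voom, scaled to kept reads, 0.5 added) in R 4.3.3, for genes with at least 30 reads. Log2 median tails, weighted by reads, needed at least 3 reads in a library and 2 such libraries per group. The log2 odds of 30 to 90 nt had binomial weights. Each test ran over all genes, with Benjamini-Hochberg adjustment and two-sided p, at 24 h, at 48 h, over both times (with time as a term) and between the times. Scripts were tested on simulated data. Exact 95% intervals are Clopper-Pearson, and a count of 0 allows 3 counts. Exons and 3′ UTRs are those of GENCODE vM21, and promoters those of RefSeq, GRCm38.p6. The authors named GENCODE vM17, and every transcript ID and version used here matched vM21.

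All 10 members are named over both times. At 1 time or between times, members with an unadjusted p under 0.05 are named, and of the other replication genes the 3 with the smallest p in reads and in tails. Other names in the report, and both 3′ end comparisons, were chosen after their values were seen. The members and gene lists were chosen with earlier results of these data known. One marker gene is not reported here.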

Additional observations from a re-analysis of the deposited data

Results flagged for a closer look

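Of all genes tested, 1 differed between the times by an interaction term, and it was none of the replication genes. The log2 odds ratio of ~60-nt tails of Gapdh, siLarp1 against siCtl, was 0.29 at 24 h and -0.11 at 48 h, a change of -0.40 (SE 0.09, limma adjusted p = 0.0123). It passed the threshold in 11 of 20 alternatives, with adjusted p from 0.000442 to 0.991. Groups of 2 or 3 libraries were too small to look for single libraries that stand apart.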

How the results depend on the processing

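No replication gene passed an adjusted p of 0.05 in any comparison under any alternative run, the smallest being 0.320 for Mcm6 in reads at 24 h with the library number as a block. Over both times, 25 of 300 alternative values of the 10 genes turned the sign of the log2 difference, and so did 28 of 300 more with a library left out. Depth limits these comparisons, since most genes had fewer than 100 reads in a library, and the 48 h groups hold 2 libraries. Mcm6 in reads ran from 0.28 to 0.50 when single libraries were left out and Mcm2 in tails from -0.46 to -0.31, with adjusted p over all alternatives of 0.570 to 0.929 and 0.383 to 0.880.

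The cause of the changes listed next was not tested. In reads, the sign turned with barcode confidence of at least 0.9 for Mcm4 (-0.032), Mcm5 (0.025) and Mcm7 (-0.083), with libraries thinned to equal depth for Mcm5 (0.024) and Fen1 (0.12), and with all quality tags for Fen1 (0.045). In tails it turned with barcode confidence for Mcm4 (0.027), Mcm5 (0.049), Rrm1 (-0.023) and Fen1 (-0.0037), with all quality tags for Mcm5 (0.055), Mcm7 (-0.0037), Pcna (-0.021), Rrm2 (-0.046) and Fen1 (-0.035), with the mean of log2 tails for Mcm5 (0.041), Mcm7 (-0.0037) and Rrm1 (-0.062), without weights for Mcm5 (0.038), with the block for Mcm5 (0.0255) and thinned for Mcm3 (0.16). In the ~60-nt class it turned when thinned for Mcm3 (-0.20), Mcm4 (-0.56) and Rrm2 (-0.37), and on the transcript with most reads for Mcm5 (0.0255). With single libraries left out, reads ran from -0.34 to 0.064 for Mcm2, -0.20 to 0.016 for Mcm5, -0.0555 to 0.15 for Mcm7 and -0.25 to 0.077 for Fen1. Tails ran from -0.12 to 0.041 for Mcm4, -0.094 to 0.0995 for Mcm5, -0.011 to 0.11 for Mcm7, -0.025 to 0.076 for Pcna, -0.0085 to 0.20 for Rrm1 and -0.0056 to 0.0945 for Rrm2, and ~60-nt odds from -0.41 to 0.010 for Mcm5, -0.0295 to 0.21 for Pcna, -0.10 to 0.22 for Rrm2 and -0.32 to 0.25 for Fen1.

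Counts of called genes over the whole table were unstable. In reads at 24 h, 0 genes became 2 with all quality tags and 0 to 8 with a library left out. At 48 h, 0 became 4 with all quality tags, 5 with at least 10 reads, 1 with the first 48 h run alone (chosen after seeing the data) and 0 to 1 with a library left out. Over both times, 7 became 4 with barcode confidence, 4 with at least 100 reads, 3 on log2(RPM + 5) and 3 to 11 with a library left out. For tails at 24 h, 0 became 1 with all quality tags, 1 on the transcript with most reads, 4 with mean log2 tails and 0 to 6 with a library left out. At 48 h, 1 became 2 with barcode confidence, 0 with all quality tags, the transcript with most reads, at least 100 reads, at least 10 reads, thinning, mean log2 tails, no weights and the first run alone, and 0 to 4 with a library left out. Over both times, 2 became 1 with barcode confidence, 0 with thinning or no weights, 21 with mean log2 tails and 1 to 7 with a library left out. In the ~60-nt class at 24 h, 7 became 11 with all quality tags, 0 on the arcsine scale and 4 to 15 with a library left out. Over both times, 14 became 4 on the arcsine scale and 5 to 17 with a library left out, and between the times 1 became 0 with barcode confidence, the transcript with most reads, thinning and the arcsine scale, and 0 to 3 with a library left out.

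With the library number as a replicate block, reads gave 20 calls at 24 h, 4 at 48 h, 19 over both times and 8 between the times, and tails gave 4, 3, 6 and 2. The numbers were not taken to pair the libraries, and the data did not settle whether they do. Deviations of same-numbered libraries at 24 h correlated at 0.0445, 0.253 and 0.230 over 964 genes, and those of different numbers at -0.242 to 0.0287. At 48 h the values were 0.102 for the same and -0.102 for different numbers. With 2 libraries per group, deviations from the group mean mirror each other, so these are a single correlation with opposite signs. Deviations within a group also cancel out at 24 h, so the values there depend on each other. At 24 h each library correlated best with its own number, so pairing was not excluded, but these values cannot decide it. The share of tails under 30 nt, siLarp1 minus siCtl, was 0.564 percentage points at 24 h, with 0.0475 to 1.04 when a library was left out, and -0.408 at 48 h, with -1.34 to 0.526, and it moved by less than 1 SD in each alternative.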
